A study of Mus musculus with 4 samples.

Results

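Expression of 10 genes of the BCL2 family was examined in CD24+ emergency progenitors (EPs) of the mouse spleen. The 10 genes were taken by symbol: the pro-survival genes Bcl2, Bcl2l1, Mcl1, Bcl2l2 and Bcl2a1b, the pore-forming effector gene Bak1, and the BH3-only genes Bcl2l11, Bmf, Bid and Bad. They are 10 of the 40213 gene symbols listed, of which 19815 had a count in at least 1 library and 12393 passed the filter on low counts and were tested. All 10 members were among the genes tested, so none was lost to the filter.

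EPs are CD11c+CD117+ cells that expand in the spleen when the cytokine Flt3L is in excess, and the study set those of WT mice beside those of mice in which TopBP1, a scaffold protein of DNA replication and of the ATR checkpoint, is deleted. WT mice were TopBP1 fl/fl littermates without Cre, and TopBP1cKO mice were TopBP1 fl/fl, CD11c-cre, in which Cre is driven by regulatory sequence of the CD11c gene, so deletion can begin only once a cell has used that sequence. All mice were 7 to 10 weeks old and received 10 μg of Flt3L-Ig into the peritoneum at the start (day 0) and again on day 3. The cells came from their spleens on day 9, as the CD24+ fraction of EPs taken by a cell sorter. Each genotype has 2 libraries. The sources used here do not say whether the 2 come from separate mice or from pools, so P values measure only the spread between these libraries. Both genotypes therefore share the floxed alleles and the Flt3L-Ig treatment, and no library of untreated mice enters the comparison.

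Proteins of the BCL2 family control whether the outer mitochondrial membrane is permeabilized, the step that releases cytochrome c and starts the caspases. The pro-survival proteins (BCL-2, BCL-XL, MCL-1, BCL-W and A1) hold the effectors BAK and BAX in check, and the BH3-only proteins (among them BIM, BMF, BID and BAD) bind the pro-survival proteins or activate the effectors. In dendritic cells, BCL-2 and MCL-1 are known as survival factors and BIM as a protein that limits lifespan. Much of the control of the family is exerted on the proteins, by cleavage, phosphorylation and degradation, which RNA counts do not show.

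Of the members, Bcl2a1b could be read with the least certainty, because the mouse genome holds near-identical copies of the A1 gene. The coding sequences of Bcl2a1a, Bcl2a1b and Bcl2a1d are each 516 bases long and differ at 12 positions in all. Bcl2a1b differs from Bcl2a1d at 6 positions (98.8% identity) and from Bcl2a1a at 11 (97.9%), and the longest run identical in all 3 copies is 217 bases. The first 60 coding bases are shown, because they hold 6 of the 12 variable positions, which are in capitals; positions that are the same in the 3 copies are in lower case. They were read from the GENCODE transcripts of GRCm38, where the stretches lie in coding exon sequence at chr9:88957051-88957110 on the plus strand (Bcl2a1a), chr9:89199360-89199419 on the plus strand (Bcl2a1b) and chr9:88731660-88731719 on the minus strand (Bcl2a1d).
Bcl2a1a: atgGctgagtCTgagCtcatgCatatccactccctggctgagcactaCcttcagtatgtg
Bcl2a1b: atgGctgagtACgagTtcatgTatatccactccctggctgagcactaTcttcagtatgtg
Bcl2a1d: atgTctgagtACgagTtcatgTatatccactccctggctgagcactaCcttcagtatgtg
A read that covers none of the capitals fits the 3 copies equally well in this stretch. Over the whole transcript, 88.8% of the 31-base sequences of Bcl2a1b are also found in another gene, and 72.4% of all its 31-base sequences are found in Bcl2a1d. The count of Bcl2a1b is uncertain for this reason, and it is given below with the sum of the copies. Bcl2l2 shares 12.8% of its 31-base sequences, nearly all with the gene model Gm20521, and no other member shares more than 0.604%.

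Total counts were 14561583 and 15193831 for WT, and 15148032 and 15093476 for the libraries labelled TopBP1cKO. The members held 18605, 20391, 17808 and 15071 of these counts in the same order (WT replicates 1 and 2, then TopBP1cKO replicates 1 and 2, as everywhere below), or 0.128%, 0.134%, 0.118% and 0.0999%. Counting error alone, as the square root of the count over the count, ran from 0.862% for Mcl1 to 8.74% for Bcl2l1. Reads are not independent molecules where no molecular identifiers are used, so this covers counting error only.

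Topbp1 itself had 1102 and 1143 counts in WT EPs, 773 in TopBP1cKO replicate 1 and 1279 in TopBP1cKO replicate 2. Only the first of the libraries labelled TopBP1cKO lay below WT, and the groups overlapped. The log2 fold change of TopBP1cKO over WT was −0.20 (SE 0.21, FDR 0.774 by the edgeR quasi-likelihood test with Benjamini–Hochberg adjustment, as for every FDR in the text unless another test is named). It was −0.61 without TopBP1cKO replicate 2 and 0.11 without replicate 1. TopBP1cKO is therefore used in the text as the label of these 2 libraries, and every direction given rests on that label.

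TopBP1cKO replicate 2 also stood apart from the other libraries. The root mean square log2 difference over all genes tested was 0.397 between the WT libraries and 0.456 to 0.457 between TopBP1cKO replicate 1 and either of them. For replicate 2 it was 0.618 and 0.624 to the WT libraries and 0.539 to its own group. The proliferation gene Mki67 had 3063, 3052, 3861 and 12144 counts, and the 20 cell cycle genes examined summed to 777, 739, 981 and 2612 CPM (counts scaled to a common library size). The members' values below are therefore given library by library, and the fits without 1 library were run for Topbp1, the members, Bcl2a1a and Bcl2a1d.

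The sort could be checked against its markers. Itgax, which encodes CD11c, had 8776, 9285, 10511 and 10034 counts, Kit, which encodes CD117, had 6812, 7181, 6014 and 5916, and Cd24a had 13752, 14001, 13475 and 11686. Flt3, the receptor of the injected cytokine, had 10148, 10563, 10096 and 9495 counts. All 4 were abundant in every library, and of these Kit alone had an unadjusted P value below 0.05 (log2 fold change −0.30, FDR 0.436). Xcr1, a marker of type 1 conventional dendritic cells (cDC1s), had 10385, 11385, 9540 and 10847 counts, so the sorted cells carried cDC1 transcripts in both genotypes.

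At FDR < 0.05, 0 of the 10 members differed between the genotypes, against a background of 13 genes called of all tested, or 0.105% (0.0807% higher and 0.0242% lower). At an unadjusted P value below 0.05 there were 4 members (1 higher and 3 lower in the libraries labelled TopBP1cKO), against a background of 10.7% of all genes tested (6.95% higher and 3.77% lower). The lower members were Bmf, Bcl2l11 and Mcl1, and the higher one was Bcl2a1b. Both libraries of one group lay above both of the other for 2 members that were higher (Bcl2 and Bcl2a1b) and for 3 that were lower (Mcl1, Bcl2l11 and Bmf), whereas 22.8% and 20.8% of all genes tested did so (43.6% in either direction). The median log2 fold change of the members was −0.07, and that of all genes tested was 0.01. A permutation of 4 libraries in 2 pairs has 0.333 as its smallest exact P value. For this reason the edgeR fit over all genes was used for every test unless another is named. A fit without 1 library leaves 1 library in a group, so only log2 fold changes are given for such fits. With each library left out in turn, that of Bmf lay between −1.32 and −0.61 and that of Bcl2l11 between −0.78 and −0.42. That of Mcl1 lay between −0.59 and −0.25, and that of Bcl2a1b between 0.40 and 0.54.

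**Figure D1:**
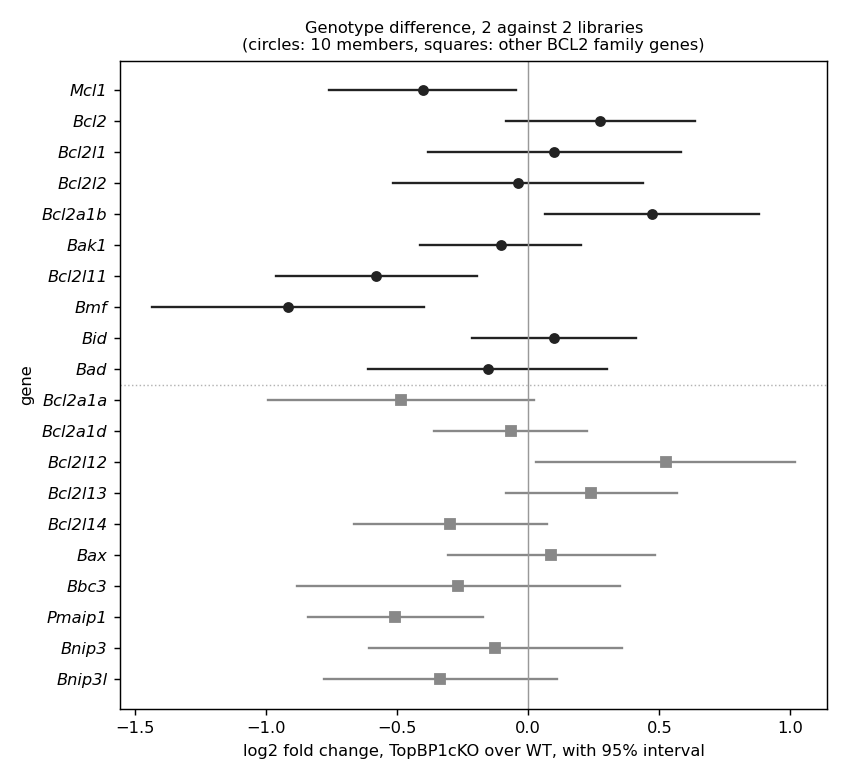
Log2 fold change of TopBP1cKO over WT (x axis) for each BCL2 family member (y axis, ordered by role), with the 95% confidence interval of the quasi-likelihood test. Of the 10 members, Bmf lies furthest to the left at −0.92 and Bcl2a1b furthest to the right at 0.47, and 0 passed FDR < 0.05.

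Levels of different genes were compared as CPM per kilobase of the most abundant transcript of each gene. Mcl1, whose product is a short-lived pro-survival protein, was the most abundant member in every library, with 259 ± 1.49 CPM per kilobase in WT EPs and 196 ± 32.8 in the libraries labelled TopBP1cKO (SD, n = 2 each, as for the levels that follow). Bak1 came next, with 91.1 ± 10.2 and 84.6 ± 6.87. The effector transcript was thus the second most abundant of the members on this scale, and Mcl1 exceeded it 2.85-fold in WT EPs and 2.32-fold in TopBP1cKO.

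Bid followed with 24.7 ± 0.022 CPM per kilobase in WT EPs and 26.4 ± 3.05 in TopBP1cKO. Bcl2a1b had 15.7 ± 1.22 and 21.8 ± 0.109, and Bad had 15.1 ± 0.223 and 13.6 ± 2.24. The libraries of Bcl2a1b and Bad overlapped in WT EPs, where these neighbours could not be ordered, but lay apart in TopBP1cKO.

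Bmf had 12.4 ± 0.713 CPM per kilobase in WT EPs and 6.58 ± 2.27 in TopBP1cKO, and Bcl2l11 had 8.71 ± 0.626 and 5.82 ± 1.04. In WT EPs the libraries of Bmf lay above those of Bcl2l11, and in TopBP1cKO they overlapped. The lowest levels belonged to Bcl2l1, Bcl2 and Bcl2l2, with 3.93 ± 0.137, 3.54 ± 0.017 and 2.76 ± 0.087 in WT EPs and 4.21 ± 0.387, 4.28 ± 0.557 and 2.68 ± 0.146 in TopBP1cKO. Bcl2l1 and Bcl2 exchanged places between the genotypes, and their libraries overlapped in TopBP1cKO.

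**Figure D2:**
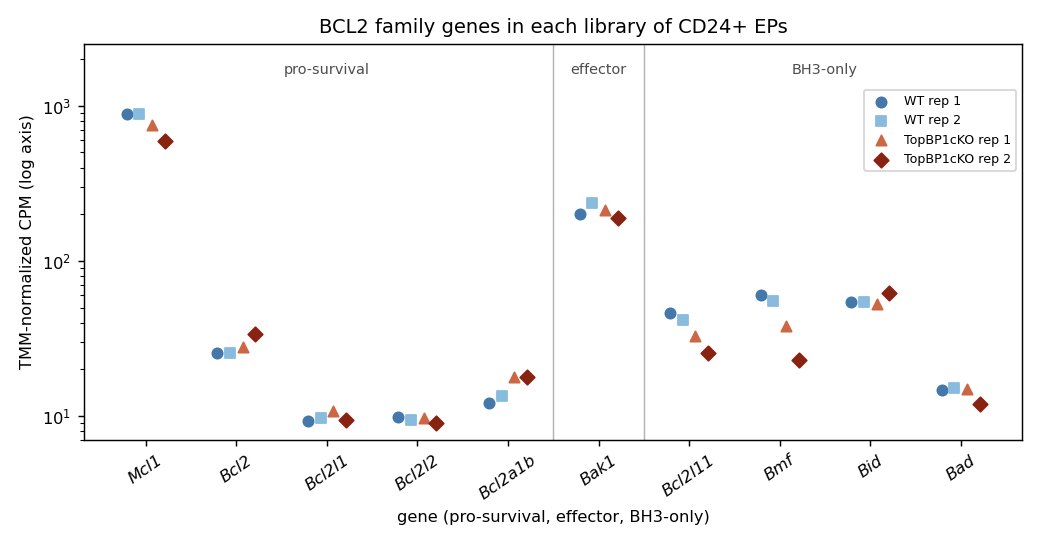
Level of each BCL2 family member in each of the 4 libraries on a log axis, with members ordered by role and a point per library. Mcl1 lies above every other member in all 4 libraries, and the TopBP1cKO points of Bmf and Bcl2l11 lie below both of their WT points.

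Among the pro-survival genes, Mcl1 had 12495 and 13454 counts in WT EPs and 11423 and 9139 in TopBP1cKO, or 883, 890, 750 and 591 CPM. Both TopBP1cKO libraries lay below both WT libraries, replicate 1 by 15.4% and replicate 2 by 33.3% of the WT mean. The log2 fold change was −0.40 (SE 0.15, 95% interval −0.76 to −0.05, FDR 0.418 by the edgeR quasi-likelihood test). It was −0.25 without TopBP1cKO replicate 2 and −0.59 without replicate 1, so the difference was larger with replicate 2 alone against WT.

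Bcl2, the founding member of the family, had 359 and 386 counts in WT EPs and 426 and 520 in TopBP1cKO, or 25.4, 25.5, 28.0 and 33.6 CPM. Both TopBP1cKO libraries were higher, with a log2 fold change of 0.27 (SE 0.16, 95% interval −0.09 to 0.64, FDR 0.580), which did not pass the test. It was 0.13 without TopBP1cKO replicate 2 and 0.40 without replicate 1. Bcl2 and Mcl1 thus lay on opposite sides of WT in both TopBP1cKO libraries.

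Bcl2l1, which encodes BCL-XL, had 131, 147, 165 and 147 counts, and Bcl2l2, which encodes BCL-W, had 140, 143, 149 and 140. Their groups overlapped. The log2 fold changes were 0.10 (SE 0.21, 95% interval −0.38 to 0.58, FDR 0.902) and −0.04 (SE 0.21, 95% interval −0.52 to 0.44, FDR 0.967). That of Bcl2l1 was 0.00022 without TopBP1cKO replicate 1 and 0.18 without replicate 2, and that of Bcl2l2 was −0.097 and 0.0073. Both intervals span changes in either direction.

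Bcl2a1b had 172 and 205 counts in WT EPs and 271 and 277 in TopBP1cKO, or 12.2, 13.6, 17.8 and 17.9 CPM. It was the member with the largest difference toward TopBP1cKO, with a log2 fold change of 0.47 (SE 0.18, 95% interval 0.06 to 0.88, FDR 0.403), which did not pass FDR < 0.05. It lay between 0.40 and 0.54 when each library was left out in turn. Of the other copies of A1, Bcl2a1a had 254, 234, 211 and 155 counts (log2 fold change −0.49, SE 0.22, FDR 0.490). Its log2 fold change was −0.74 without TopBP1cKO replicate 1 and −0.28 without TopBP1cKO replicate 2. Bcl2a1d, the most abundant copy, had 621, 671, 636 and 657 (log2 fold change −0.07, SE 0.13, FDR 0.888).

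Summed, the 3 copies had 1047, 1110, 1118 and 1089 counts, or 74.0, 73.4, 73.4 and 70.4 CPM, with a log2 fold change of −0.04 (SE 0.12, 95% interval −0.31 to 0.24, FDR 0.948). The sum was nearly level across the 4 libraries, while the share given to Bcl2a1b, per kilobase, was 17.0%, 19.1%, 25.01% and 26.3%. That of Bcl2a1a was 25.01%, 21.7%, 19.4% and 14.7%, and that of Bcl2a1d was 58.0%, 59.2%, 55.6% and 59.0%. A change in the transcripts of single copies and a change in how reads were divided between them cannot be told apart in these counts. The fourth copy, Bcl2a1c, had 2, 12, 4 and 6 counts and was left out of the sum.

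**Figure D3:**
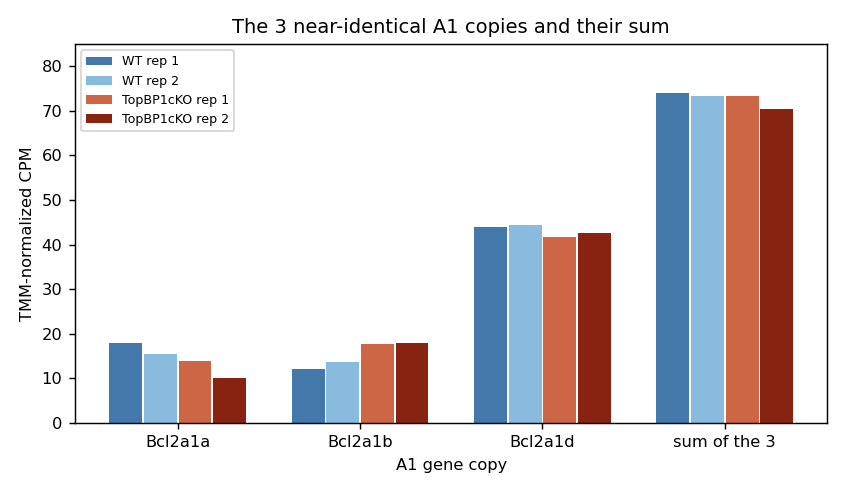
Levels of Bcl2a1a, Bcl2a1b and Bcl2a1d in each library. As CPM per kilobase, the copies sum to between 83.4 and 87.6 in the 4 libraries. Bcl2a1b is higher and Bcl2a1a lower in both TopBP1cKO libraries than in WT.

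Together, the 5 pro-survival members came to 283 and 287 CPM per kilobase in WT EPs and to 252 and 206 in TopBP1cKO. Mcl1 made up 91.2% and 90.6% of that sum in WT EPs and 86.9% and 83.9% in TopBP1cKO. When the other A1 copies were counted in, the sums were 356, 358, 318 and 268, and Mcl1 made up 72.5%, 72.8%, 69.1% and 64.6%. The lower sum and the lower share of Mcl1 were seen in both TopBP1cKO libraries whether or not those copies were counted. Fewer cells of a type and less RNA per cell cannot be told apart in these bulk libraries, here or in any result of the text.

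Among the effectors, Bak1 had 2833 and 3545 counts in WT EPs and 3254 and 2944 in TopBP1cKO, or 200, 235, 214 and 190 CPM. The groups overlapped, and the log2 fold change was −0.11 (SE 0.13, 95% interval −0.41 to 0.20, FDR 0.815), which was −0.22 without WT replicate 1 and 0.00066 without WT replicate 2. Bax, which encodes the other effector, had 571, 668, 785 and 592 counts (log2 fold change 0.09, SE 0.17, FDR 0.896). Per kilobase, Bak1 made up between 60.1% and 65.8% of the summed effector level in the 4 libraries. Bok, a further relative of the effectors, had 0 counts in 3 libraries and 3 in TopBP1cKO replicate 2.

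Among the BH3-only members, Bmf and Bcl2l11 had lower values in both TopBP1cKO libraries than in either WT library, as 20.8% of all genes tested did, and Bid and Bad overlapped between the genotypes. Bmf, whose product is a BH3-only protein tied to the cytoskeleton, had 849 and 836 counts in WT EPs and 579 and 357 in TopBP1cKO, or 59.99, 55.3, 38.0 and 23.1 CPM. Replicate 1 lay 34.1% and replicate 2 lay 59.95% below the WT mean. The log2 fold change of −0.92 (SE 0.22, 95% interval −1.43 to −0.40) was the largest among the members, with an FDR of 0.307 over all genes tested, and its P value ranked at 145 among them. The log2 fold change of Bmf was −0.61 without TopBP1cKO replicate 2 and −1.32 without TopBP1cKO replicate 1. In these fits the remaining library was assumed to vary like the WT libraries. Without WT replicate 1 or WT replicate 2 the log2 fold change was −0.86 and −0.99. With all 4 libraries, Bmf passed FDR < 0.05 by the DESeq2 Wald test (FDR 0.0195) and the edgeR likelihood ratio test (FDR 0.0204). These tests called 137 and 234 genes in all.

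Bcl2l11, which encodes BIM, a BH3-only protein that binds all the pro-survival proteins, had 652 and 629 counts in WT EPs and 503 and 396 in TopBP1cKO, or 46.1, 41.6, 33.0 and 25.6 CPM. Replicate 1 lay 24.7% and replicate 2 lay 41.6% below the WT mean. The log2 fold change was −0.58 (SE 0.16, 95% interval −0.96 to −0.20, FDR 0.337), which did not pass FDR < 0.05. It was −0.42 without TopBP1cKO replicate 2 and −0.78 without replicate 1.

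Bid, whose product is cleaved by caspase-8 and links death receptors to the mitochondrion, had 764, 817, 809 and 967 counts. It was near the WT level in TopBP1cKO replicate 1 and 15.8% above it in replicate 2, with a log2 fold change of 0.10 (SE 0.14, 95% interval −0.22 to 0.41, FDR 0.834), which was 0.21 without replicate 1 and −0.033 without replicate 2. Bad, whose product is held inactive by phosphorylation, had 210, 229, 229 and 184 counts, with a log2 fold change of −0.16 (SE 0.20, 95% interval −0.61 to 0.30, FDR 0.816), which was −0.34 without TopBP1cKO replicate 1 and −0.0050 without replicate 2. With all 4 libraries, neither differed beyond the spread between the libraries.

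Summed, the 4 BH3-only members had 61.7 and 60.2 CPM per kilobase in WT EPs and 54.2 and 50.6 in TopBP1cKO. Bcl2l11 and Bmf accounted for 22.1, 20.2, 14.7 and 10.1 of this, whereas Bid and Bad together had 39.7, 40.0, 39.4 and 40.6. Bmf and Bcl2l11 had nearly equal shares of their joint level in TopBP1cKO replicate 2 (49.4% and 50.6%), and Bmf had the larger share in the other 3 libraries, from 55.5% to 59.0%.

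**Figure D4:**
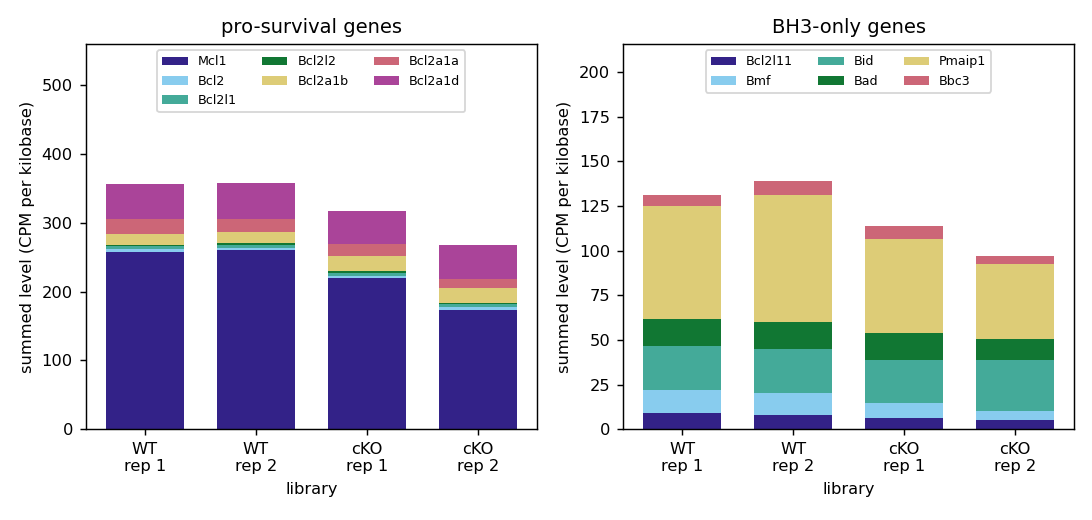
Stacked levels, as CPM per kilobase from 0, of pro-survival genes (left) and BH3-only genes (right) in each library (x axis). Mcl1 fills most of each pro-survival bar and is shortest in TopBP1cKO replicate 2, and the Bmf and Bcl2l11 segments are smaller in both TopBP1cKO libraries than in WT.

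The remaining genes of the family were taken as a list of 16, of which 13 had a count and 10 were tested. At an unadjusted P value below 0.05, 6.95% of all genes tested were higher and 3.77% lower, the background for this list and those below. At FDR < 0.05, 0 of the 10 differed, 1 was higher and 1 lower at an unadjusted P value below 0.05, and the median log2 fold change was −0.20. The lower one was Pmaip1, which encodes the BH3-only protein NOXA, a partner of MCL-1 and A1. It had 2439 and 2928 counts in WT EPs and 2178 and 1773 in TopBP1cKO (log2 fold change −0.51, SE 0.14, FDR 0.337), and both TopBP1cKO libraries lay below both WT libraries. The higher one was Bcl2l12, with 100, 106, 154 and 157 counts (log2 fold change 0.52, SE 0.21, FDR 0.447).

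Bbc3, which encodes the BH3-only protein PUMA, had 156, 220, 196 and 130 counts and overlapped between the genotypes (log2 fold change −0.27, SE 0.26, FDR 0.757). With Pmaip1 and Bbc3 counted in, the BH3-only level was 131, 139, 114 and 97.3 CPM per kilobase, and Pmaip1 was its largest component in every library, at 48.2%, 51.0%, 46.1% and 43.2%. Bnip3l, whose product acts in the removal of mitochondria, had 1763, 1757, 1752 and 1172 counts, so that TopBP1cKO replicate 2 alone lay low (log2 fold change −0.34, FDR 0.583). Bnip3, Bcl2l13 and Bcl2l14 had log2 fold changes of −0.13, 0.24 and −0.30, none with an FDR below 0.556. Bcl2l15 had 4, 0, 2 and 0 counts. The genes Bik, Hrk and Bcl2l10 had 0 counts in every library, which allows up to 3 counts in each.

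The genes that act downstream of the mitochondrion were described by a list of 20 (the apoptosome, caspases and inhibitors of apoptosis proteins, IAPs), all of them tested. At FDR < 0.05, 0 differed. At an unadjusted P value below 0.05, 3 were higher and 1 lower, against 6.95% and 3.77% of all genes tested. The median log2 fold change was 0.06. Cycs, which encodes the cytochrome c that the pores release, had 2173, 2284, 2673 and 3473 counts (log2 fold change 0.39, SE 0.14, FDR 0.394), and Aifm1, which encodes a further mitochondrial protein, had a log2 fold change of 0.35 (FDR 0.464). Both genes were higher in both TopBP1cKO libraries. Birc5, whose product survivin acts in cell division as well, had 227, 242, 370 and 816 counts (log2 fold change 1.27, SE 0.33, FDR 0.307), highest in the library in which Mki67 was highest. Birc3, which encodes cIAP2, had 3258, 3178, 2835 and 2503 counts and was the lower one (log2 fold change −0.34, SE 0.13, FDR 0.401). The other abundant genes of the list, Birc6, Xiap and Apaf1, overlapped between the genotypes, with log2 fold changes of 0.19, −0.08 and −0.06.

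Of 14 genes of the death receptor and necroptosis pathways, 13 were tested and 0 differed at FDR < 0.05. Tnfrsf1a, which encodes the TNF receptor 1, was the one with an unadjusted P value below 0.05, with 1499, 1723, 1397 and 1304 counts (log2 fold change −0.32, SE 0.12, FDR 0.406). Ripk1, the most abundant of the list in WT EPs, had a log2 fold change of −0.23 (FDR 0.548). Cyld had the higher mean in TopBP1cKO (142 CPM against 135 for Ripk1). The log2 fold changes of Cyld and Cflar were −0.02 and 0.01. The median of the list was −0.01. Among 25 upstream regulators and mitochondrial partners of the family, 24 were tested and 0 differed at FDR < 0.05, with a median of 0.08. Pim1, a kinase whose targets include BAD, was the one with an unadjusted P value below 0.05, with 3063, 3279, 2919 and 2166 counts (log2 fold change −0.39, SE 0.16, FDR 0.456). The abundant genes Ywhaz, Huwe1, Stat3 and Nfkb1 had log2 fold changes between −0.09 and 0.15.

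The p53 targets examined include Pmaip1, Bbc3 and Bax. Of 11 tested, 8 were higher and 3 lower by sign, 3 were higher and 2 lower at an unadjusted P value below 0.05, and 0 differed at FDR < 0.05 (median log2 fold change 0.11). Cdkn1a, the p53 target that encodes the cell cycle inhibitor p21, had 81, 111, 223 and 407 counts (log2 fold change 1.65, FDR 0.237), and Phlda3 had 3, 4, 29 and 36 (log2 fold change 3.10, FDR 0.182). Ccng1 was the third that was higher, at 0.34 (FDR 0.465). Pmaip1, given above, and Trp53inp1, with 1110, 977, 823 and 869 counts (log2 fold change −0.38, FDR 0.401), were lower. Mdm2, also abundant, had 1259, 1340, 1149 and 1612 counts and overlapped between the genotypes (log2 fold change 0.02, FDR 0.981).

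The cell cycle genes and the markers of other cells were examined beside the members. Of the 20 cell cycle genes, 0 differed at FDR < 0.05 and all 20 were higher at an unadjusted P value below 0.05 (median log2 fold change 1.28), with the highest sum in TopBP1cKO replicate 2, the library in which Mcl1, Bmf and Bcl2l11 were lowest. Of 15 neutrophil markers tested, 5 were higher at FDR < 0.05 and 12 at an unadjusted P value below 0.05 (median 1.39), and their summed level was 1549, 1282, 3296 and 2483 CPM. Mpo had 8464, 6391, 13311 and 3014 counts and was the most abundant of them in all libraries but TopBP1cKO replicate 2, Ngp had 3553, 3758, 10753 and 10665, S100a8 had 1502, 1516, 4640 and 4535, and Ly6g had 16, 13, 49 and 67. The part of the neutrophil markers and of the cell cycle genes in the values of the members was not tested.

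Of the other cell types, the pDC markers held 1 gene that was higher at FDR < 0.05, Cox6a2, with 0, 3, 183 and 168 counts, and the other lists below held 0. Each list's leading gene is the one with the highest mean CPM over the 4 libraries. The 7 B cell markers tested summed to 73.7, 68.1, 82.2 and 85.9 CPM with 0 called, led by Cd22. Of 4 T cell markers tested, 2 were higher at an unadjusted P value below 0.05. The 6 T cell markers with a count, tested or not, summed to 185, 212, 167 and 213 CPM, led by Cd8a, which cDC1s also express. Cd3e, which was not tested, had 7, 5, 24 and 7 counts. The NK cell markers summed to 14.0, 12.0, 24.7 and 12.0 CPM, led by Nkg7, with 1 of 6 higher at an unadjusted P value below 0.05, and Ncr1 had 12, 17, 38 and 34 counts. The pDC markers, led by Tcf4, summed to 209, 217, 195 and 193 CPM, with 2 of 8 higher (Cox6a2 and Spib) and 2 lower (Bst2 and Tcf4) at an unadjusted P value below 0.05, and Siglech had 71, 120, 113 and 96 counts. The macrophage and monocyte markers summed to 608, 581, 692 and 530 CPM, led by Ccr2, with 1 of 9 higher (Csf1r) and 1 lower (C1qb) at an unadjusted P value below 0.05. Csf1r had 275, 342, 456 and 517 counts, C1qb had 16, 23, 3 and 7, and by sign 5 of the 9 were higher and 4 lower. The erythroid markers summed to 16.0, 13.1, 18.1 and 18.5 CPM, led by Hba-a1.

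The dendritic cell markers themselves were split. The 10 cDC1 markers, led by Wdfy4, summed to 10704, 10700, 10444 and 9759 CPM with a median log2 fold change of −0.14. At an unadjusted P value below 0.05, Itgae was higher and Cadm1 lower, and 0 passed FDR < 0.05. Among the 8 cDC2 markers, 5 were higher at an unadjusted P value below 0.05 and 0 at FDR < 0.05 (median 0.74). Sirpa had 359, 484, 787 and 986 counts, and Itgam had 305, 253, 672 and 1201. Xist had 10777, 12558, 11476 and 21365 counts and the genes Ddx3y, Eif2s3y, Kdm5d and Uty of the Y chromosome had at most 1, in every library.

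The gene sums of the members rested on 51 transcript rows in the files, of which 33 had a count. For Bmf, the most abundant row had 707, 824, 448 and 213 counts, so that both TopBP1cKO libraries were lowest in it as in the sum. A second Bmf row had 56 and 12 counts in WT EPs and 0 in both TopBP1cKO libraries, and another had 0 in WT EPs and 42 and 144 in TopBP1cKO. For Bcl2l11, the most abundant row had 244, 382, 446 and 205 counts and overlapped between the genotypes, the next had 267, 73, 0 and 138, and another had 83 in each WT library and 0 in both TopBP1cKO libraries. The difference in Bcl2l11 was therefore seen in the sum and not in its most abundant row.

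Mcl1 had nearly all of its counts in 1 row (12379, 13340, 11312 and 9062). Bcl2 was split into a row of 309, 330, 380 and 500 counts and one of 50, 56, 46 and 20, and Bad into rows of 130, 150, 177 and 136 and of 80, 79, 52 and 48. A Bcl2l1 row had 8, 35, 55 and 33 counts and a Bid row 120, 69, 91 and 20, and both rows varied within each genotype. In all, 7 rows had a count in 1 library alone. With each of 29581 transcripts tested by itself, 0 differed at FDR < 0.05 by the edgeR quasi-likelihood test, 24 of those tested being transcripts of the members, and 2018 had an unadjusted P value below 0.05. Transcripts of a gene overlap, so how reads were divided among the rows of a gene, which was not tested, bears on each row and less on the sum.

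**Figure D5:**
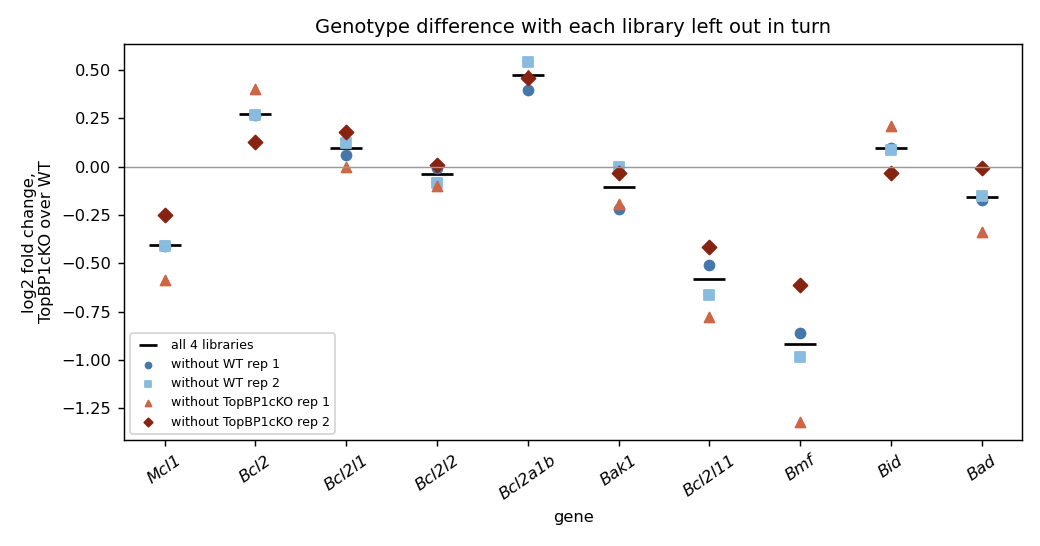
Log2 fold change of TopBP1cKO over WT (y axis) for each member (x axis) in the fit to all 4 libraries and in the fits that each left out 1 library. Bmf, Bcl2l11 and Mcl1 stay below 0 and Bcl2 and Bcl2a1b above 0 in every fit, with Bmf between −1.32 and −0.61.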

How the data were processed

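Bulk RNA-seq of 4 libraries was examined, 2 of WT and 2 labelled TopBP1cKO. Per library, the deposited values are counts of reads for each transcript as whole numbers, with gene symbols, and were not normalized by the authors. The submitters' processing notes name fastp, STAR, Salmon, GATK and the build GRCm39, without roles or versions, and how reads fitting more than one transcript were counted is not given in the sources used here. Libraries were made with the CORALL RNA-seq V2 kit per the labels, which name RNAiso Plus for RNA extraction where the paper has a RNeasy Mini Kit. Rows without an accession, which stand for miRNA and mitochondrial genes among others, held from 3.03% to 4.86% of counts and were kept under their symbols.

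Counts were summed per symbol, filtered by filterByExpr and tested with edgeR 4.0.16 (TMM, glmQLFit, glmQLFTest) in R 4.3.3, with Benjamini–Hochberg adjustment over the 12393 genes tested. Each SE is the size of the log2 fold change divided by the root of the F statistic. CPM use TMM effective library sizes (factors 0.973 to 1.03). The biological coefficient of variation was 15.2% (common dispersion 0.0230). No libraries were duplicates (smallest chi-square 11.9 per degree of freedom). Alternatives were other normalizations, filters and tests (DESeq2 1.42.0, limma 3.58.1), a replicate block, each transcript by itself, A1 copies summed and each library left out. Lengths and A1 sequences came from GENCODE transcripts of GRCm38, matched by RefSeq transcript. The fit was tested on simulated data (seed 11).

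The members and lists were chosen with earlier results of these data known. Genes named are the members, Topbp1 and the other BCL2 genes. Some of the cell cycle, sort and sex-linked genes are named, and of each cell type's markers the most abundant gene and defining markers. From each other list, those with an unadjusted P value below 0.05 or among the 4 most abundant are named. 0 columns of other samples were left out.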

Additional observations from a re-analysis of the deposited data

How the results depend on the processing

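With all 4 libraries, 0 members differed at FDR < 0.05; the number was 1 by the DESeq2 Wald test, by the edgeR likelihood ratio test and with the replicate block (Bmf each time, with an FDR of 7.26e-05 under the block), and it lay between 0 and 3 when each library was left out. Over all genes tested the number was 13, and it was 137 by the DESeq2 Wald test, 234 by the likelihood ratio test, 504 with the replicate block and 0 with each transcript by itself, and lay between 1 (without WT replicate 2) and 2625 (without TopBP1cKO replicate 1). Among the pathway lists the number was 0, and it was 1 by the DESeq2 Wald test, by the likelihood ratio test and with the replicate block, and between 0 and 16 with a library left out. Replicate numbers did not pair the libraries: same-numbered deviations from the group means had a correlation of −0.0147. The log2 fold change of Topbp1 lay between −0.61 and 0.11 with a library left out. Of 170 refitted log2 fold changes of the members, the other A1 copies and Topbp1, 8 changed sign. Besides Topbp1 (0.11 without TopBP1cKO replicate 1), these were Bak1 (0.00066 without WT replicate 2, in a range from −0.22 with a library left out), Bcl2l2 (0.0073, from −0.097) and Bid (−0.033, up to 0.21) without TopBP1cKO replicate 2, Bcl2l1 (−0.12), Bcl2l11 (0.0036) and Bad (0.097) taken as their most abundant transcript, and Bcl2a1b (−0.036) as the sum of the A1 copies. The cause was not tested, save that the sum is made of other genes' counts as well. At these depths, counting error alone is over 5% in every library for Bcl2l1, Bcl2l2, Bcl2a1b and Bad.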
